A study of Mus musculus with 8 samples.

Results

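The genes examined here encode proteins that break down triglyceride-rich lipoproteins and take up what is left of them, in cultured mouse hepatocytes with and without overexpression of the long non-coding RNA gene Gm47544. They are 10 genes chosen by symbol from the 21983 symbols of the deposited count table: Lpl, Lipc, Lipg, Lmf1, Gpihbp1, Pltp, Lrp1, Vldlr, Apoe and Apoa5. All 10 had a row in the table. The series holds 8 RNA-seq libraries of AML-12, an established line of hepatocytes that derives from a mouse carrying a human TGF-alpha transgene, all grown in DMEM with 10% fetal bovine serum and antibiotics. The 4 control libraries came from cells with pLKO.1, a lentiviral vector, labelled WT. The other 4 came from cells labelled as overexpressing GM47544, and their labels name no vector, so how Gm47544 was delivered is not known here. Whether libraries of a group are separate cultures is not stated, so each p-value measures only the spread between libraries, which may be technical.

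Triglyceride in circulating lipoproteins is hydrolysed at the wall of capillaries by lipoprotein lipase, which is folded in the endoplasmic reticulum of muscle, fat and other parenchymal cells with the help of LMF1 and is then held on endothelial cells by GPIHBP1. Hepatic lipase and endothelial lipase, the products of Lipc and Lipg, act on smaller particles and on phospholipid, and the phospholipid transfer protein PLTP moves the surface lipid that is set free. The remnants carry APOE, a ligand that hepatocytes bind through heparan sulphate and through large endocytic receptors such as LRP1, while APOA5 speeds the hydrolysis and VLDLR binds APOE-rich particles mainly outside the liver. The series title names APOC3, which slows this clearance, and Gm47544, and the comparison asks how hepatocyte transcripts changed with more Gm47544.

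Library totals ran from 11016907 to 18965662 counts and did not differ detectably between the groups (two-sided exact permutation test, p = 0.343). The first principal component separated the groups: overexpression libraries scored 36.8 to 43.1 and controls -53.8 to -42.8, except control library 3 at -14.8. Of the hepatocyte markers, 8 of 14 reached a mean of 1 CPM (counts scaled to a common library size) in controls and 9 of 14 in overexpression libraries, with a summed level of 1678 to 2291 against 1046 to 1069 CPM. Of the 10 tested, 2 were higher and 3 lower with overexpression. The edgeR test described below called 32.3% of all tested genes higher and 32.1% lower. The hepatocyte sum was led by Ttr, at 1321 ± 239 against 279 ± 24.2 CPM, while Alb, the albumin gene, stood at 22.3 ± 3.85 against 267 ± 28.2 CPM (SD, n = 4). Hnf4a was abundant in both groups, whereas Apoa2 had 1 count and Ahsg 3 counts over the controls, and the biliary keratin Krt19 was at 2253 ± 570 against 1702 ± 142 CPM (SD, n = 4). Several defining hepatocyte markers were thus absent or nearly so, and a biliary one was abundant. The 6 cholangiocyte markers summed to 2788 to 4139 CPM in controls against 4475 to 5076 CPM, where 1 of 4 tested members was higher, Spp1 at 943 ± 209 against 2731 ± 114 CPM (SD, n = 4), and 2 were lower. Other members of that list were nearly absent: Epcam had 1 control and 0 overexpression counts, and Cftr 7 and 2. The 7 stellate and fibroblast markers summed to 3.56 to 5.47 against 9.86 to 17.5 CPM, with Lrat and Lum at 0 in all 8 libraries. Any part of these markers' cells in a result was not tested. Gm47544 itself was not analysed here, so the overexpression could not be checked against its own counts. In bulk RNA, fewer cells that make a transcript and less of it per cell cannot be told apart.

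Of the 10 genes, the receptors Lrp1 and Vldlr were the most abundant and the lipases Lpl, Lipc and Lipg were nearly silent. Per kilobase of exon in controls, Lrp1 stood at 15.9 ± 2.44 CPM per kb and Vldlr at 12.0 ± 2.73 (SD, n = 4), levels that exceeded those of 68.9% and 61.6% of 11491 tested genes with a gene model. Lmf1 at 2.62 ± 0.591 and Apoe at 2.31 ± 0.156 CPM per kb (SD, n = 4) followed, above 24.7% and 22.8% of genes. The other 6 lay at or below 0.0937 CPM per kb on average, and Gpihbp1 had no count in any library. Among neighbours in this order, Lrp1 overlapped Vldlr and Lmf1 overlapped Apoe over the 4 controls, and from Apoa5 downwards every neighbour overlapped the next. In the overexpression libraries the order changed at the top, with Vldlr at 16.8 ± 2.61 and Lrp1 at 8.75 ± 0.472 CPM per kb (SD, n = 4) and no overlap of their values. Apoe at 2.41 and Lmf1 at 1.90 CPM per kb followed and overlapped, and then came Apoa5 at 1.45 and Lipc at 0.215, with Pltp, Lpl and Lipg at or below 0.0191 CPM per kb. Exon lengths are those of all annotated isoforms of GENCODE M21 together, so a gene with many long annotated isoforms has a lower level per kb than its main transcript would give.

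**Figure D1:**
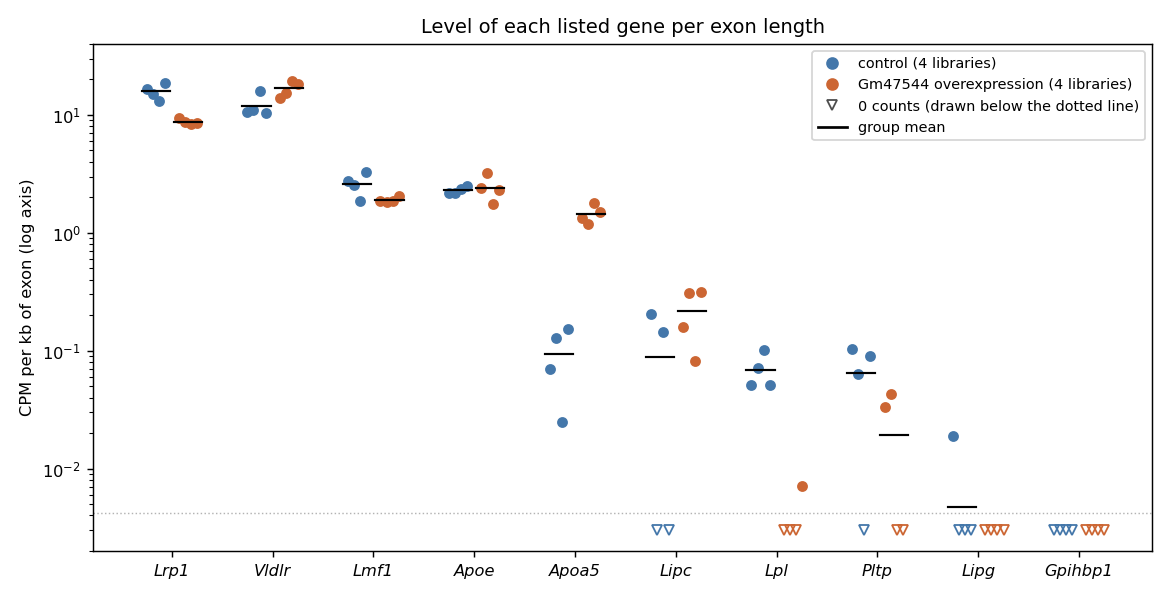
Level of the 10 listed genes as CPM per kb of exon on a log axis, with 1 point per library, bars for group means and open triangles for libraries with 0 counts. Lrp1 and Vldlr lay at the top in both groups, Apoa5 had 0.0937 CPM per kb in controls and 1.45 in overexpression libraries, and Gpihbp1 had no counts.

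Of the 10 genes, 5 passed the filter on low counts and were tested (Lmf1, Lrp1, Vldlr, Apoe and Apoa5), and 4 of these 5 passed 0.05 after adjustment in the edgeR quasi-likelihood test, Apoa5 and Vldlr higher and Lrp1 and Lmf1 lower in the overexpression libraries. Apoa5 passed the filter only through the overexpression libraries, where it is high, so its place among the tested genes is not independent of its difference. The background was high: 64.4% of all 11520 tested genes were called, 32.3% higher and 32.1% lower, so 4 of 5 is not a result about these genes as a group. The 4 and 4 values did not overlap for Lrp1 and Apoa5, 2 of 5, against 56% of all tested genes. The median log2 fold change of the 5 was 0.082, beside 0.00041 for all tested genes. Lpl, Lipc, Lipg, Gpihbp1 and Pltp did not pass the filter and were compared by their summed counts.

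**Figure D2:**
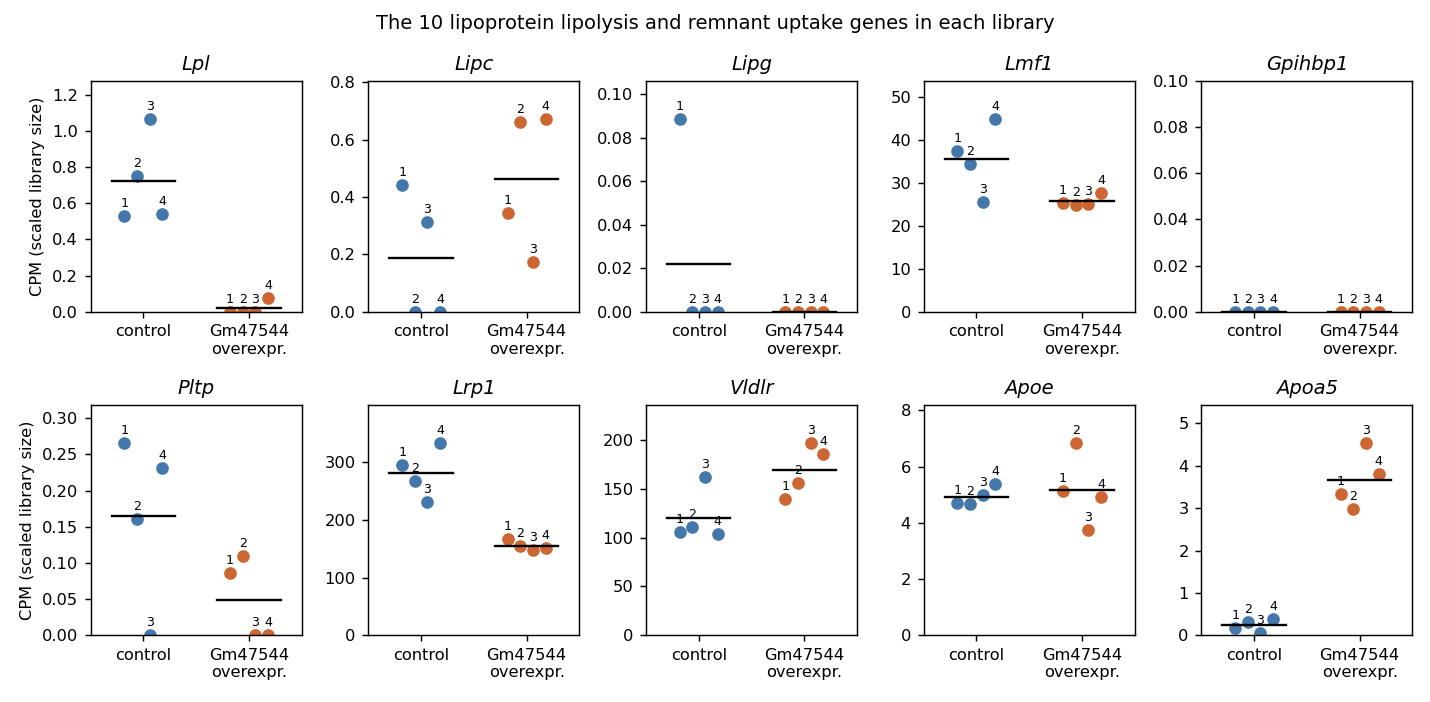
CPM of each of the 10 listed genes in the 4 control and 4 overexpression libraries, with library numbers beside the points and bars for group means; each panel has its own axis from 0. Lrp1 and Apoa5 did not overlap between the groups, Vldlr and Lmf1 overlapped through control library 3, and the lipases Lpl, Lipc and Lipg lay below 1.1 CPM in every library.

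Lpl (chromosome 8, 68880491 to 68907448, GRCm38, plus strand), the lipase that starts the hydrolysis of lipoprotein triglyceride, was low in controls and almost undetected with Gm47544 overexpression. Its counts were 6, 14, 17 and 7 in control libraries 1 to 4, against 0, 0, 0 and 1 in overexpression libraries 1 to 4, or 0.531, 0.751, 1.06 and 0.538 CPM against 0, 0, 0 and 0.0745 CPM. The groups did not overlap, control library 3 being the highest and the single overexpression read lying in library 4. At equal depth the control counts were 40.8 times the overexpression counts, with an exact 95% binomial interval of 6.95 to 1648 that covers counting error only. Reads were not marked by molecular identifiers as far as the sources used here say, so intervals and floors for counts throughout cover counting error and no more. The exact permutation test gave p = 0.0286, two-sided, the smallest that 4 against 4 libraries allow. With no filter on low counts the log2 fold change was -4.80 (SE 0.85, edgeR adjusted p = 4.16e-05), in a fit that called 48.6% of 16281 genes, 24.2% as lower. Without overexpression library 4 the group had no Lpl count. The pooled control level was then 10.3 times a floor of 3 counts over the remaining overexpression libraries. That value leaves out counting error in the controls.

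Macrophages and adipocytes are known for abundant Lpl, and their markers were read beside it. Of the macrophage list, Adgre1 and Clec4f had 0 counts in all 8 libraries, while Csf1r had 27.1 ± 2.46 against 10.2 ± 1.70 CPM and Cd14, which hepatocytes also make, 1077 ± 200 against 680 ± 66.4 CPM (SD, n = 4). The 7 macrophage markers summed to 828 to 1292 CPM in controls and 600.4 to 747 CPM in overexpression libraries. Of 3 tested members 2 were lower and 0 higher, beside 32.1% lower and 32.3% higher of all tested genes. Itgam, which was not tested, went from 10 control to 63 overexpression counts. Ptprc had 0.646 ± 0.343 against 0.544 ± 0.283 CPM, and Cd68 1.57 ± 0.302 against 1.28 ± 0.441 CPM (SD, n = 4). The 6 adipocyte markers summed to 1.34 to 2.15 against 0.386 to 1.64 CPM, mostly Cidec, with Lep at 0 in every library and Adipoq at 1 count in all. Whether such cells were present, and any part of theirs in the Lpl difference, was not tested.

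The other lipases gave too few reads for a call. Lipc, hepatic lipase, a gene of differentiated hepatocytes, had 5, 0, 5 and 0 control counts and 4, 12, 2 and 9 overexpression counts. Its overexpression counts were 2.91 times the control counts at equal depth (exact 95% binomial interval 1.37 to 6.74, counting error only), but control libraries 2 and 4 held none and the values overlapped (0 to 0.442 against 0.174 to 0.670 CPM). The exact permutation test gave p = 0.143, two-sided. When each library was left out, the ratio ran from 1.99 without control library 2 to 4.70 without control library 1. Lipg, endothelial lipase, had 1 count in control library 1 and none in any other library. A count of 0 over the overexpression libraries allows a Lipg level of up to 0.0548 CPM.

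Lmf1 (chromosome 17, 25579085 to 25662826, GRCm38, plus strand), the membrane protein of the endoplasmic reticulum that lipoprotein lipase, hepatic lipase and endothelial lipase need to fold, was well above the lipases in level, and it fell. It stood at 37.6, 34.4, 25.5 and 44.9 CPM in control libraries 1 to 4 and at 25.5, 24.8, 25.2 and 27.7 CPM in overexpression libraries 1 to 4. Control library 3 lay inside the overexpression range and the other controls above it. The means were 35.6 ± 8.03 against 25.8 ± 1.31 CPM (SD, n = 4), 1.38-fold lower with overexpression (log2 fold change -0.46, SE 0.16, edgeR adjusted p = 0.0202). The call was lost without control library 4 (log2 fold change -0.34, adjusted p = 0.056 in edgeR), without overexpression library 2 (-0.44, adjusted p = 0.0553) and with scaling by library totals alone (-0.33, adjusted p = 0.0614), and without control library 3 the log2 fold change was -0.62 (adjusted p = 2.96e-05). Its close relative Lmf2, like Sdc1 named after its values were seen, also fell (log2 fold change -0.44, SE 0.13), and within each library the ratio of Lmf1 to Lmf2 counts per kb was 0.0867 to 0.101 in controls and 0.0898 to 0.103 in overexpression libraries.

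Gpihbp1, the anchor of lipoprotein lipase on capillary endothelium, had 0 counts in all 8 libraries, which allows up to 0.0509 CPM in the controls and 0.0548 CPM in the overexpression libraries as group levels. Of the 7 endothelial markers, none reached a mean of 1 CPM in controls, where they summed to 0.187 to 0.590 CPM. In overexpression libraries they summed to 1.46 to 2.18 CPM and only Cdh5, with 7 control and 71 overexpression counts, reached 1 CPM. Pltp, which transfers phospholipid to high-density lipoprotein, had 3, 3, 0 and 3 control counts and 1, 2, 0 and 0 overexpression counts. That is a ratio of 2.78 at equal depth with an exact 95% interval of 0.695 to 16 and an exact permutation p of 0.171, so a difference could not be detected at this depth. When each library was left out, the ratio ran from 2.10 without overexpression library 4 to 5.58 without overexpression library 2. In the annotation, 495 bases of Pltp exons (19.3%) overlap exons of Ctsa on the other strand, and the strand setting of the counting is not given, so even these counts are uncertain.

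Of the receptors, Lrp1 was called lower and Vldlr higher, and the Vldlr call depended on the libraries and processing used. Lrp1 (chromosome 10, 127538161 to 127621148, GRCm38, minus strand), a large endocytic receptor that clears remnants in the liver, stood at 295, 267, 231 and 333 CPM in control libraries 1 to 4 and at 167, 155, 147 and 151 CPM in overexpression libraries 1 to 4. All overexpression libraries lay below all controls, and control library 3 was the lowest control. The means were 281 ± 43.2 against 155 ± 8.37 CPM (SD, n = 4), 1.81-fold lower (log2 fold change -0.86, SE 0.12, edgeR adjusted p = 7.22e-05). The call held in all 18 alternatives, with log2 fold changes from -1.69, without the trend on gene length, to -0.55, without that on GC content (edgeR, limma and DESeq2 adjusted p from 3.11e-10 to 5.44e-04).

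Vldlr (chromosome 19, 27216484 to 27254231, GRCm38, plus strand), the receptor that binds very-low-density lipoprotein, was higher with overexpression. It stood at 106, 111, 162 and 104 CPM in control libraries 1 to 4 and at 139, 156, 196 and 185 CPM in overexpression libraries 1 to 4. Control library 3 lay inside the overexpression range, and the other controls lay below all overexpression libraries. The means were 120 ± 27.5 against 169 ± 26.3 CPM (SD, n = 4), 1.40-fold higher (log2 fold change 0.49, SE 0.16, edgeR adjusted p = 0.0168). Without control library 3 the log2 fold change was 0.63 (adjusted p = 2.39e-05 in edgeR). The call was lost in 6 of 18 alternatives: without control library 1 or 2 (log2 fold change 0.43 and 0.45, edgeR adjusted p = 0.0592 and 0.0537), without overexpression library 3 or 4 (0.41 and 0.44, adjusted p = 0.061 and 0.0521), and after removal of the trend on gene length (0.046, adjusted p = 0.756) or on GC content (0.14, adjusted p = 0.215).

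Gene length and GC content moved with the group difference across the transcriptome, and the members stood at different places on both scales. The median log2 fold change rose from -0.52 in the 20% of tested genes with the shortest exons (231 to 2522 bases) to 0.49 in the 20% with the longest (7642 to 123179 bases). Lmf1, Lrp1 and Vldlr, with 13.6, 17.7 and 10.1 kb of exon, lay in the longest 20%, where the median was 0.49, the value of Vldlr itself, while Lrp1 and Lmf1 fell. Apoe and Apoa5 lay in the shortest 20%. The median fell from 0.42 in the 20% of genes with the lowest GC content to -0.32 in the highest, which holds Lrp1, Apoe and Apoa5. Removing the length trend thus took Vldlr to a log2 fold change of 0.046, Lmf1 to -1.15 and Lrp1 to -1.69, with 1121, 438 and 143 tested genes at least as long as these members. These lengths again join all annotated isoforms and can exceed that of the main transcript. Places on the length scale and values with the length trend removed depend on that choice.

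**Figure D3:**
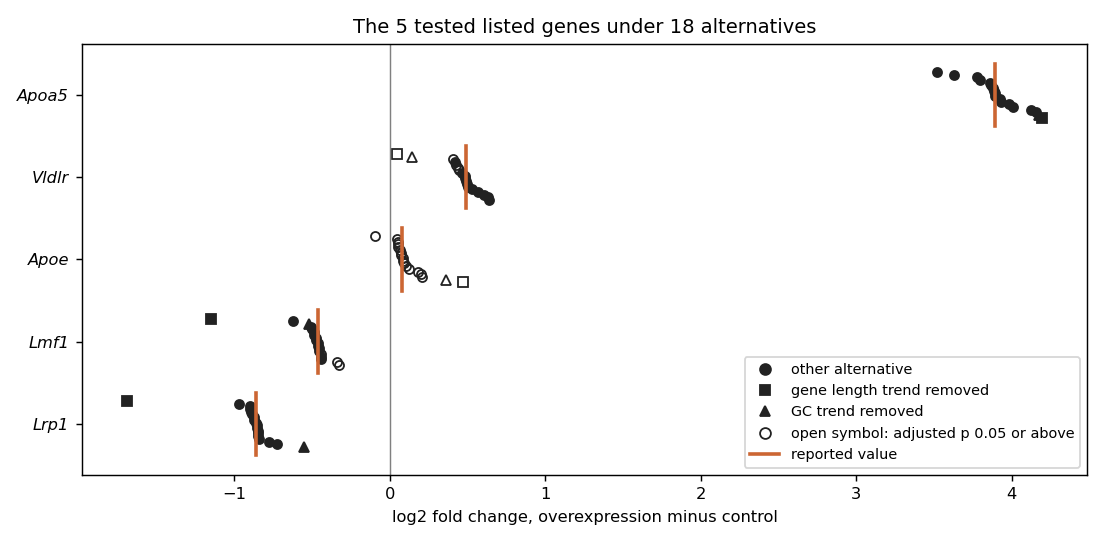
Log2 fold change (overexpression minus control) of the 5 tested listed genes as reported (orange bar) and under 18 alternatives (points; squares with the gene length trend removed, triangles with the GC trend removed, open symbols at an adjusted p of 0.05 or above). Apoa5 and Lrp1 stayed called throughout, Vldlr moved to 0.046 with the length trend removed, and Apoe was not called in any. All alternatives draw on the same counts, and Apoa5 passed the reported filter only through the overexpression libraries.

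Ratios within a library do not depend on the scaling of libraries, and they show the shift between Vldlr and Lrp1 directly. The ratio of Vldlr to Lrp1 counts per kb was 0.633, 0.728, 1.23 and 0.548 in control libraries 1 to 4, against 1.47, 1.77, 2.35 and 2.16 in overexpression libraries 1 to 4. No values overlapped, and the means were 0.785 ± 0.307 and 1.94 ± 0.393 (SD, n = 4). This ratio and that of Lmf1 to Lmf2 were chosen after the values had been seen and are given as descriptions, and a ratio of a gene to another with a different length or GC content carries the trends described above.

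**Figure D4:**
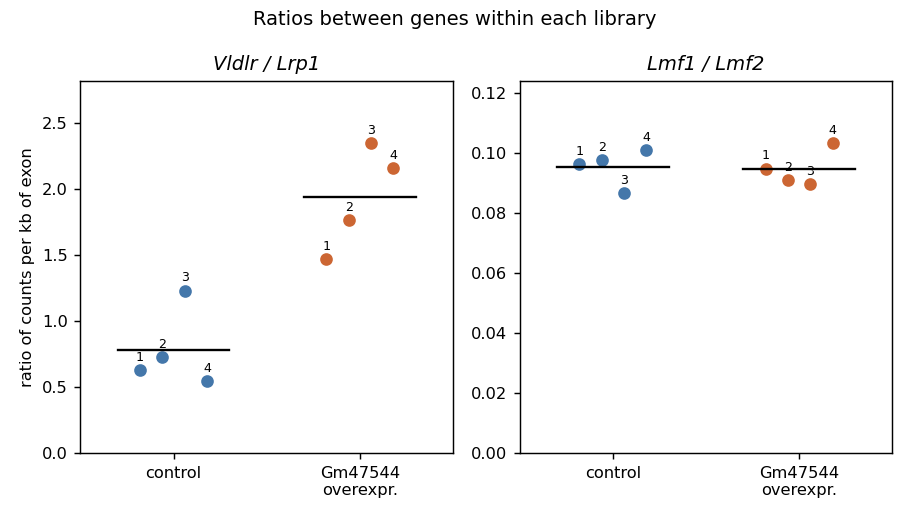
Ratios of counts per kb of exon between Vldlr and Lrp1 and between Lmf1 and Lmf2 within each library, with library numbers beside the points and bars for group means. Vldlr over Lrp1 ran from 0.548 to 1.23 in controls and from 1.47 to 2.35 in overexpression libraries, while Lmf1 over Lmf2 overlapped between the groups.

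The windows before the start sites of the receptors and of Lmf1 are shown because Lrp1 and Lmf1 fell together while Vldlr did not, a choice made after these values had been seen. Any part of these windows in the differences was not tested. Each is the 250 bases before the start of the first RefSeq entry (GRCm38.p6), 5′ to 3′ on the strand of the gene, with matches to 4 motifs on either strand in capitals; 7 of the 10 genes had an entry. RefSeq and GENCODE starts differ for Lmf1, so its window runs past the GENCODE start of the gene given above.
Lrp1, chr10:127621149-127621398, minus strand: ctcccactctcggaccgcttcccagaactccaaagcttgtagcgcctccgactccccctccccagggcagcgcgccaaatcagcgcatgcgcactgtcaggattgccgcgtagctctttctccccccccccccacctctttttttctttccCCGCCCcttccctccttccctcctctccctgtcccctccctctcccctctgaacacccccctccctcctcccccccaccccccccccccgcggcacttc
Lmf1, chr17:25578924-25579173, plus strand: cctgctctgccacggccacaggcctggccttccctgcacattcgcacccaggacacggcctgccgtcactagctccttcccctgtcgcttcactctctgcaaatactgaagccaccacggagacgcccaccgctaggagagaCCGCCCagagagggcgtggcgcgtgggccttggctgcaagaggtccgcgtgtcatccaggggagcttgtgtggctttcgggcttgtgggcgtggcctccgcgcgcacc
Vldlr, chr19:27216234-27216483, plus strand: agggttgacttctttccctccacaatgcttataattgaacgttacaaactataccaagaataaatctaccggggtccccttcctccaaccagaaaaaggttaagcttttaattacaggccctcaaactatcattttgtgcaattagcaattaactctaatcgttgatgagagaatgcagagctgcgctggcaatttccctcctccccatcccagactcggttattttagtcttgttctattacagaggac
The motifs, searched on both strands, were the TATA box TATAAA, the CCAAT box, the GC box GGGCGG and the E-box CACGTG, none of which contains another. Lrp1 and Lmf1 each held 1 GC box, which 32.7% of 32851 promoter windows hold, and none of the other motifs, and the Vldlr window above held none of the 4. The window of a second Vldlr entry, chr19:27216770-27217019 on the plus strand, had 1 GC box and 1 CCAAT box (33.8% of windows). That second window lies inside Vldlr as GENCODE places it. CG dinucleotides numbered 13 for Lrp1, 19 for Lmf1 and 5 and 18 for the Vldlr starts, against a median of 6 over all windows. Among windows of the other listed genes, those of Pltp and of a second Lipc entry held 1 GC box each. The first Lipc window and all windows of Apoa5 and Apoe held no GC box. Each Apoa5 window held 1 TATA box (12.4% of all windows) and 1 E-box (6.02%). The Apoa5 windows overlap, so these may be the same matches. A second Apoe window held 2 TATA boxes, and CCAAT boxes numbered 3 and 1 in the Lipc windows and 1 in that of Pltp. The matches are letters in a window and no sites of binding.

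Apoe, the ligand of remnant receptors, was not called. It stood at 4.69, 4.67, 5.00 and 5.38 CPM in control libraries 1 to 4 and at 5.14, 6.83, 3.75 and 4.92 CPM in overexpression libraries 1 to 4, so the overexpression values lay on both sides of the controls. The means were 4.93 ± 0.333 against 5.16 ± 1.27 CPM (SD, n = 4), and the log2 fold change was 0.082 (SE 0.19, edgeR adjusted p = 0.722), and the adjusted p stayed at 0.0526 or above in all 18 alternatives. Apoe lies on chromosome 7 (19696109 to 19699188, GRCm38, minus strand) beside Apoc1, Apoc4 and Apoc2, small exchangeable apolipoproteins. Apoc4 had 20 counts in controls and 71 with overexpression, or 0.326 ± 0.133 and 1.27 ± 0.374 CPM (SD, n = 4), without overlap, and its log2 fold change was 1.90 (SE 0.38, edgeR adjusted p = 8.19e-04). Like Apoa5, Apoc4 passed the filter only through the overexpression libraries, so its place among the tested genes is not independent of its difference. Apoc2, the activator of lipoprotein lipase, had 4 counts against 11 (ratio 2.96, exact 95% interval 0.878 to 12.8), and Apoc1, named after its values were seen, had 7 against 37; neither passed the filter. In the annotation 79.5% of Apoc2 exon bases and 4.69% of Apoc4 exon bases also belong to Gm44805, a gene on the same strand, so the counts of this pair are uncertain.

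Apoa5, the apolipoprotein that brings particles to lipoprotein lipase, showed the largest difference of the 5 tested members. Its counts were 2, 6, 1 and 5 in control libraries 1 to 4, against 39, 54, 52 and 51 in overexpression libraries 1 to 4, or 0.177, 0.322, 0.0625 and 0.384 CPM against 3.34, 2.97, 4.53 and 3.80 CPM. The lowest overexpression library lay above the highest control. As said above, Apoa5 passed the filter only through the overexpression libraries. The log2 fold change was 3.89 (SE 0.36, edgeR adjusted p = 2.97e-06), and it ran from 3.52, without control library 3, to 4.19, once the length trend was taken out, over 18 alternatives. By level per length Apoa5 exceeded 1.31% of tested genes in controls and 13.8% in overexpression libraries.

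These Apoa5 counts cannot be assigned to Apoa5 with certainty, because the overexpressed gene lies on the opposite strand of the same exons. GENCODE M21 places Gm47544 on the minus strand of chromosome 9 and Apoa5 on the plus strand (46268633 to 46271919, GRCm38). All 524 exonic bases of Gm47544 lie under Apoa5 exons, 176 of them, exon 2, under coding sequence and 348, exon 1, under exon outside the coding sequence, which leaves 1998 Apoa5 exon bases uncovered. The stretch of Apoa5 coding sequence around exon 2 of Gm47544 is shown because reads of Gm47544 from it could be counted for Apoa5 if strand was ignored. It is written 5′ to 3′ on the Apoa5 strand, with the 176 bases under Gm47544 in capitals and 50 bases on each side.
Apoa5, chr9:46269985-46270260, plus strand: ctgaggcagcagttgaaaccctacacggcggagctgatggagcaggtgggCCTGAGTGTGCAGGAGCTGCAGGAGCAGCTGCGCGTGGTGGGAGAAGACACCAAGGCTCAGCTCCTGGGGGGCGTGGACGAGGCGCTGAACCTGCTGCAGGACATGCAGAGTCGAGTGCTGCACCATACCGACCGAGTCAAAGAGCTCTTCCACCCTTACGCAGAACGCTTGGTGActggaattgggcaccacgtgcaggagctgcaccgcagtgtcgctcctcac
The deposited table has 1 count per gene and library, so reads inside and outside the capitals could not be separated, and whether the higher Apoa5 counts are transcripts of Apoa5 or of Gm47544 cannot be told apart. Apoc3, in the same gene cluster, had 13 control and 13 overexpression counts (ratio 1.08, exact 95% interval 0.46 to 2.52).

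Beyond the 10 genes, 54 related genes were listed by role, and 39 were tested, of which 12 rose and 15 fell, with a median log2 fold change of -0.072 beside 0.00041 for all tested genes. That is 27 of 39 called, close to the 64.4% of all tested genes. Among those that rose, Apoc4 and Lrp2 passed the filter only through the overexpression libraries, where they are high. Among genes of lipase maturation, cleavage and inhibition, 2 of 8 tested rose and 5 fell (median -0.46), beside 32.3% higher and 32.1% lower of all tested genes. Angptl8, an inhibitor of lipoprotein lipase, fell from 6.99 ± 2.34 to 1.89 ± 0.558 CPM (SD, n = 4), with a log2 fold change of -1.83 (SE 0.28), or -0.96 with the length trend removed. The proteases Pcsk6 and Furin, which cleave endothelial lipase, had log2 fold changes of -1.27 (SE 0.12) and -0.65 (SE 0.14), and Calr, a chaperone used by lipoprotein lipase, -0.47 (SE 0.12). The Calr call was lost with the length trend removed (-0.22, edgeR adjusted p = 0.0758). Angptl4, another inhibitor, was at 34.3 ± 9.29 against 31.6 ± 0.938 CPM (SD, n = 4) and was not called (adjusted p = 0.583 in edgeR), except without control library 3 (log2 fold change -0.31, adjusted p = 0.00959).

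Among other receptors and their adaptors, 4 of 11 tested rose and 4 fell (median -0.00081), near the 32.3% higher and 32.1% lower of all tested genes. Lrp8, the nearest relative of Vldlr, fell from 20.6 ± 3.48 to 13.3 ± 2.73 CPM (SD, n = 4), with a log2 fold change of -0.64 (SE 0.18), so it moved against Vldlr. Lsr, a lipolysis-stimulated receptor, had a log2 fold change of -0.71 (SE 0.14), with 43.6% of its exon bases under an antisense gene. Npc2, which moves cholesterol out of lysosomes, had -0.97 (SE 0.14), and Snx17, a sorting nexin that returns LRP1 from endosomes to the cell surface, -0.63 (SE 0.13), with 6.60% and 5.27% of its exon bases under Eif2b4 and Zfp513 on the other strand. In the other direction Dab2, an adaptor for endocytosis of lipoprotein receptors, rose from 9.09 ± 0.845 to 41.4 ± 4.35 CPM (SD, n = 4), with a log2 fold change of 2.19 (SE 0.13). Lrp2, Sort1 and Sorl1 of the same list, named after their values were seen, were also called higher. Their log2 fold changes were 3.01 (SE 0.75), 0.52 (SE 0.13) and 1.24 (SE 0.49). Lrp2 had 11 control and 82 overexpression counts, and Sorl1 had 23 and 52, with overlap of the groups.

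The other lists held few tested genes or moved both ways. Their counts stand beside 32.3% higher and 32.1% lower of all tested genes. Of 5 tested genes in a list of apolipoproteins with Apobr and Lcat, 2 rose and 0 fell (median 0.49), Apoc4 as above and Apob, the backbone of lipoproteins that the liver secretes, with a log2 fold change of 0.76 (SE 0.18), which was 0.13 with the length trend removed (edgeR adjusted p = 0.334). Of the other lipases 2 of 7 were tested: Pla1a, a secreted phospholipase of the same family as Lpl, fell from 76.9 ± 13.5 to 25.4 ± 3.06 CPM, and Lipa, the lysosomal acid lipase, rose from 203 ± 28.4 to 297 ± 18.8 CPM (SD, n = 4). Their log2 fold changes were -1.60 (SE 0.15) and 0.55 (SE 0.12). The Lipa call was lost with the GC trend removed (0.15, edgeR adjusted p = 0.0956). Of 13 tested heparan sulphate genes, 3 rose and 5 fell (median -0.18): the modifying enzymes Glce and Hs2st1 had log2 fold changes of 0.89 (SE 0.19) and 0.46 (SE 0.11), the latter not called with the length trend removed (0.13, edgeR adjusted p = 0.198), and Hs6st1 and the core protein gene Sdc4 -0.75 (SE 0.13) and -0.66 (SE 0.12). Sdc1, the main syndecan of remnant uptake in liver, had 346 ± 90.0 against 334 ± 27.5 CPM (SD, n = 4) and was not called.

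**Figure D5:**
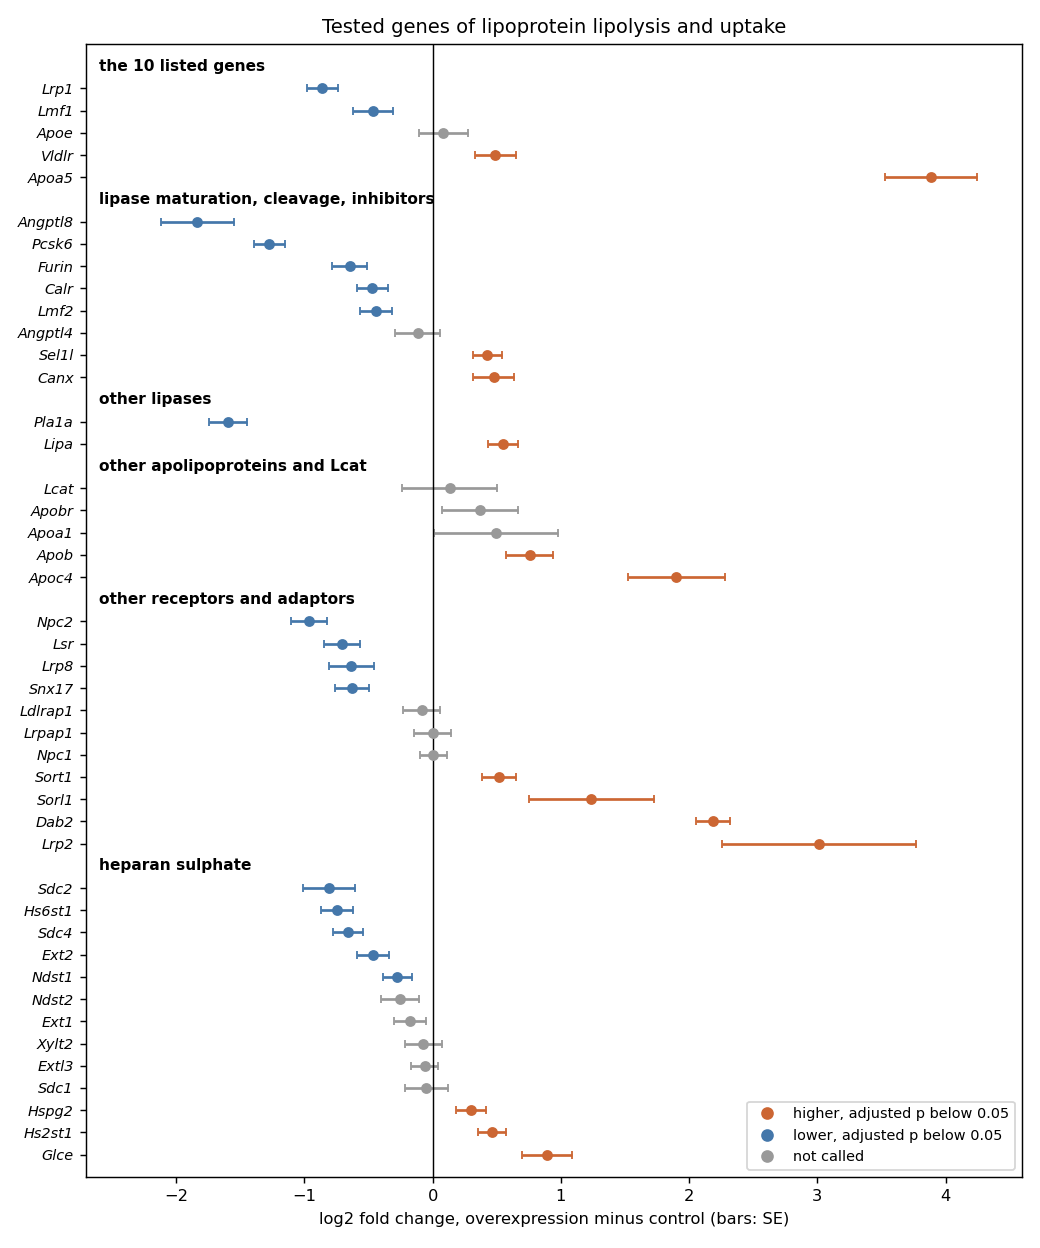
Log2 fold change (overexpression minus control, bars for SE) of the 5 tested listed genes and of the 39 tested related genes, grouped by role; orange higher and blue lower at an adjusted p below 0.05, grey not called. Each group with more than 2 tested genes held members that were not called. Lrp1, Lrp8 and Lsr lay left of 0 while Vldlr, Lrp2, Sort1 and Sorl1 lay right of it.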

How the data were processed

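RNA-seq counts of 8 AML-12 libraries were used, 4 control and 4 overexpression, grouped by title. The deposited values are the authors' raw read counts, 1 row per symbol. Of the tools, FastQC, STAR, HTSeq and the build mm10 are named, per the submitters' processing notes; the sources used here give no version, annotation or strand setting. Counts went into edgeR 4.0.16 under R 4.3.3: filterByExpr (minimum count 10; 11520 of 16281 genes with counts), trimmed-mean scaling and the two-sided quasi-likelihood test on group with Benjamini-Hochberg adjustment over all tested genes, called at 0.05. The edgeR common coefficient of biological variation came to 0.15. SEs are the log2 fold change over the square root of F. Genes under the filter were compared by exact permutation of CPM and by summed counts with exact 95% binomial intervals. Gene models came from GENCODE M21 on GRCm38, the assembly of mm10, which matched 21926 of 21983 symbols, and promoters from RefSeq. The fit was tested on simulated data. Within groups, chi-square per gene ran from 2.41 to 102, so every pair of libraries differed beyond counting noise. Members and lists were chosen with earlier results of these data known. Named related genes were up to 4 called genes with the smallest p in each list and 6 fixed genes. Some related genes are not reported here, and counts of lists leave them out. Alternatives were other scalings and filters, a replicate block, DESeq2 1.42.0, limma 3.58.1 (voom with quality weights), removal of length or GC trends (lowess, span 0.3) and leaving out each library. Figures were drawn with matplotlib 3.10.9.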

Additional observations from a re-analysis of the deposited data

Results flagged for a closer look

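In 1 of 52 groups of 4 libraries examined among the listed and named genes, 1 library lay far from the other 3 by Dixon's criterion at 95%, which chance alone meets in about 5% of groups. It was control library 3 for Vldlr: its gap to the nearest control was 0.878 of the range of the controls, at 162 CPM against 104 to 111 CPM. There control library 3 lay on the side of the overexpression libraries.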

How the results depend on the processing

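Of the 10 listed genes, 2 were called higher and 2 lower as reported. The number called higher was 1 with the length trend or the GC trend removed and 1 to 2 when each library was left out in turn, Vldlr being the gene lost. The number called lower was 1 with library totals alone and 1 to 2 when each library was left out, Lmf1 being the gene lost, and 3 with no filter on low counts, which added Lpl. Among the related genes 12 were called higher, 7 with the length trend removed. The log2 fold change of Apoe, not called, ran from -0.096 without overexpression library 2 to 0.47 with the length trend removed, and to 0.20 without overexpression library 3 when each library was left out; that of Angptl4, from -0.31 without control library 3, turned to 0.024 with library totals alone, 0.020 with the length trend removed and 0.012 without control library 4. The cause was not tested. With library totals alone the median over all genes moved by 0.13 on the log2 scale and this raised the share of calls that were higher from 50.2% to 58.4%. What the library numbers mark is not stated. Correlations between the deviations of same-numbered libraries ran from -0.191 to 0.0365, and 0 of 4 controls matched best with their own number. These values cannot show that such libraries shared nothing else. With the replicate block 2 listed genes were called higher and 2 lower, 11 and 14 related genes, and 3682 and 3447 of all genes, and log2 fold changes of the listed genes were -0.44 for Lmf1, -0.85 for Lrp1, 0.50 for Vldlr, 0.055 for Apoe and 3.89 for Apoa5. Depth limits Lpl, Lipc, Lipg, Gpihbp1 and Pltp, whose groups held 0 to 44 counts.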
